A study of Homo sapiens with 12 samples.

Results

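Hypoxia response and glycolysis genes were examined in A549, a human lung adenocarcinoma cell line, across 4 stable derivatives with altered AHR expression. The group held 42 genes of the 60623 in the deposited count table, chosen by gene symbol as targets or regulators of the hypoxia-inducible factors (HIF) and as enzymes and transporters of glycolysis, and the table listed each of them once. The lines were made with lentivirus carrying the pLV-EF1a-IRES-Hygro empty vector (V), wild-type HA-AHR (WT), HA-AHR with the S489A mutation (SA) or HA-AHR with the S489D mutation (SD), and all 4 were selected with hygromycin and kept in RPMI 1640 medium with serum. The SA construct lacks the serine that is phosphorylated by PLK1, and the SD construct carries an acidic residue that mimics its phosphorylation. Each line was sequenced as poly(A)-enriched RNA from 3 biological replicates, giving 12 libraries, and no label names a low-oxygen condition. Each construct was carried by 1 stable line that still had its own AHR gene, so the construct and any other difference between lines cannot be told apart. The labels do not say whether the replicates came from separate cultures, and p-values therefore measure the spread between these libraries, which may be technical.

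HIF is a pair of proteins made of an oxygen-regulated alpha subunit (HIF1A or EPAS1) and the constant subunit ARNT. In the presence of oxygen the alpha subunit is hydroxylated by the EGLN enzymes and degraded, and when oxygen falls it pairs with ARNT and switches on genes for glucose uptake, glycolysis, lactate export, blood vessel growth and collagen modification. AHR is a ligand-activated factor that uses the same ARNT partner. HIF recognises the core sequences ACGTG and GCGTG, and GCGTG is also the core recognised by AHR with ARNT.

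Start regions of 4 genes are shown because SLC16A3 rose and CA12 fell in each of the 3 AHR lines relative to V, the first LDHA window held 5 matches to ACGTG, and DDIT4 differed between WT and SA cells. The letters are from RefSeq on GRCh38.p14, 5′ to 3′ on the strand of the gene, restricted to bases before the start site that lie in no annotated exon. Capitals mark the HIF core ACGTG and the core GCGTG shared by HIF and AHR, or either core on the other strand (CACGT and CACGC). The regions are chr17:82228792-82229041 for SLC16A3 (plus strand), chr11:18394313-18394559 for LDHA (plus strand), chr10:72273705-72273918 for DDIT4 (plus strand) and chr15:63381847-63382096 for CA12 (minus strand). The genes themselves span chr17:82228397-82261129 (SLC16A3, ENSG00000141526), chr11:18394560-18408425 (LDHA, ENSG00000134333), chr10:72273924-72276036 (DDIT4, ENSG00000168209) and chr15:63321378-63381846 (CA12, ENSG00000074410) in the deposited table.
SLC16A3: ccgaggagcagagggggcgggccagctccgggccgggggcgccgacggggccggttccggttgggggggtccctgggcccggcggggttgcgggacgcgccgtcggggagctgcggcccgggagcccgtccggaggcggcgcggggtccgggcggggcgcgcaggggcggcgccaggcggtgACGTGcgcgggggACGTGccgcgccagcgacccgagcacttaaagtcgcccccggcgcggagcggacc
LDHA: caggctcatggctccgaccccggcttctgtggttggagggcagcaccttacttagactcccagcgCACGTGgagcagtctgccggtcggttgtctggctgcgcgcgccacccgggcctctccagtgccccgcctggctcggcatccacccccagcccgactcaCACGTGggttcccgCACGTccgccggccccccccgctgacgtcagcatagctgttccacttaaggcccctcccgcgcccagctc
DDIT4: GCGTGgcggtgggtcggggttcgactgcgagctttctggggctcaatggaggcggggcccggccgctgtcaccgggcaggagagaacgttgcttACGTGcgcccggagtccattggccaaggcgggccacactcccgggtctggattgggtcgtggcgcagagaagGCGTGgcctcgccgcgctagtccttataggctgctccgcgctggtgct
CA12: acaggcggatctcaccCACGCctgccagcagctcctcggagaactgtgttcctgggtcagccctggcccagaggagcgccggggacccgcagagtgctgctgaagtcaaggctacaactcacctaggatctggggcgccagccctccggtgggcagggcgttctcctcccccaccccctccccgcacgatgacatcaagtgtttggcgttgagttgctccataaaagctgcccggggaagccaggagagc
The windows searched ran from 250 bases before to 50 bases after each start site, both strands were read, and 38 of the 42 genes had an entry, with 70 start sites among them. ACGTG occurred in 30 of the 70 windows (42.9%), against 21.4% of all 35116 windows in the table, and 24 of the 38 genes had it in at least 1 window. GCGTG occurred in 31 of the 70 windows (44.3%), against 36.5% of all windows. The longer AHR motif TNGCGTG, which contains GCGTG, was in 1 of the 70 windows (1.43%), against 5.51% of all windows. SLC16A3 had 5 start sites in the table, of which the 1 printed was the only window with ACGTG (2 matches), while 2 others held GCGTG alone and 2 held neither. The CACGTG runs of LDHA were counted once on each strand. In DDIT4 the same region held both cores, and in CA12 only GCGTG, the core shared by HIF and AHR, was present in the window. A match is a string of letters and was not tested as a binding site.

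Total expected counts per library ranged from 7844045 to 11765576, a limit of 3 counts corresponded to 0.255 to 0.382 CPM (counts scaled to library size), and none of the 42 genes was listed at 0 in any library. AHR summed with the overlapping readthrough record ENSG00000283321 was at 69.1 ± 4.51 CPM in V and at 469 ± 16.4 in WT (mean ± standard deviation, n = 3), with 393 ± 18.9 for SA and 296 ± 8.16 for SD, and the construct and the cell's own gene were counted together. The epithelial keratins KRT8 and KRT18 were at 1908 CPM or more in every library, whereas EPCAM, another epithelial marker, was between 0.381 and 1.75 CPM. Of the 11 markers chosen for blood cells, endothelium and fibroblasts, CD3E, VWF, COL1A2 and DCN were listed at 0 in all 12 libraries and PTPRC, LYZ, PECAM1, CDH5 and LUM were at 0.316 CPM or less. CD68 lay between 21.7 and 36.7 CPM and was higher in SA than in V (log2 fold change 0.36 ± 0.10 SE), and COL1A1 lay between 5.34 and 13.1 CPM and was lower in WT and SA than in V. The markers of differentiated lung epithelium (SFTPC, SFTPA1, SCGB1A1 and FOXJ1) were at 0.617 CPM or less. In a bulk sample, a smaller number of cells that express a gene and less of its RNA per cell cannot be told apart. Among libraries of 1 line, SD replicates 1 and 3 differed most from each other (mean squared residual 6.88, against 2.5 to 4.81 in the other pairs), and SD replicate 1 was low for many glycolysis genes. Counts of changed genes among the 42 that rest on SD are therefore also given without SD replicate 1. Those of the wider list are not, and those of all genes are given only as a range over single libraries left out.

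To ask whether AHR expression was accompanied by a change in these genes, each AHR line was compared with V (edgeR's quasi-likelihood test, Benjamini-Hochberg adjustment over all genes tested, changed at an adjusted p under 0.05). Log2 fold changes of single genes are given ± the standard error, and p-values in parentheses are adjusted p-values of this test unless another tool is named. In SA cells the lactate exporter SLC16A3, the mTORC1 inhibitor DDIT4, the angiogenic factor VEGFA and the glucose transporter SLC2A1 rose, with log2 fold changes of 0.29 to 0.62, and so did LDHA and 5 genes of the glycolysis group, with 0.15 to 0.22. Among the genes that rose in SD cells, VEGFA, SLC16A3 and the collagen lysyl hydroxylase PLOD2 had the smallest adjusted p, and in WT cells PKM, SLC16A3 and LDHA did. CA12, a membrane carbonic anhydrase, fell in all 3 lines (log2 fold change -0.42 to -0.27). In WT, 7 of 42 tested genes rose and 2 fell, against a background of 2.31% rising and 2.93% falling among all 14772 genes tested. In SA, 15 of 41 tested genes rose and 1 fell, with 3.88% rising and 3.29% falling among all genes; HK2 did not pass the filter on low counts in that comparison. In SD, 8 of 42 rose and 2 fell, with 2.92% rising and 2.49% falling among all genes. Over the tested genes of the group, log2 fold changes had a median of 0.10 (WT), 0.16 (SA) and 0.13 (SD), whereas the median over the whole table was 0.00 for WT and SD and -0.00 for SA. Of the 42, 20 averaged over 100 CPM, and among all genes at 50 CPM or more the share that changed in either direction was 9.47% (WT), 13.1% (SA) and 8.39% (SD), against 21.4%, 39% and 23.8% of the tested genes of the group. The 3 comparisons share the same 3 V libraries.

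**Figure D1:**
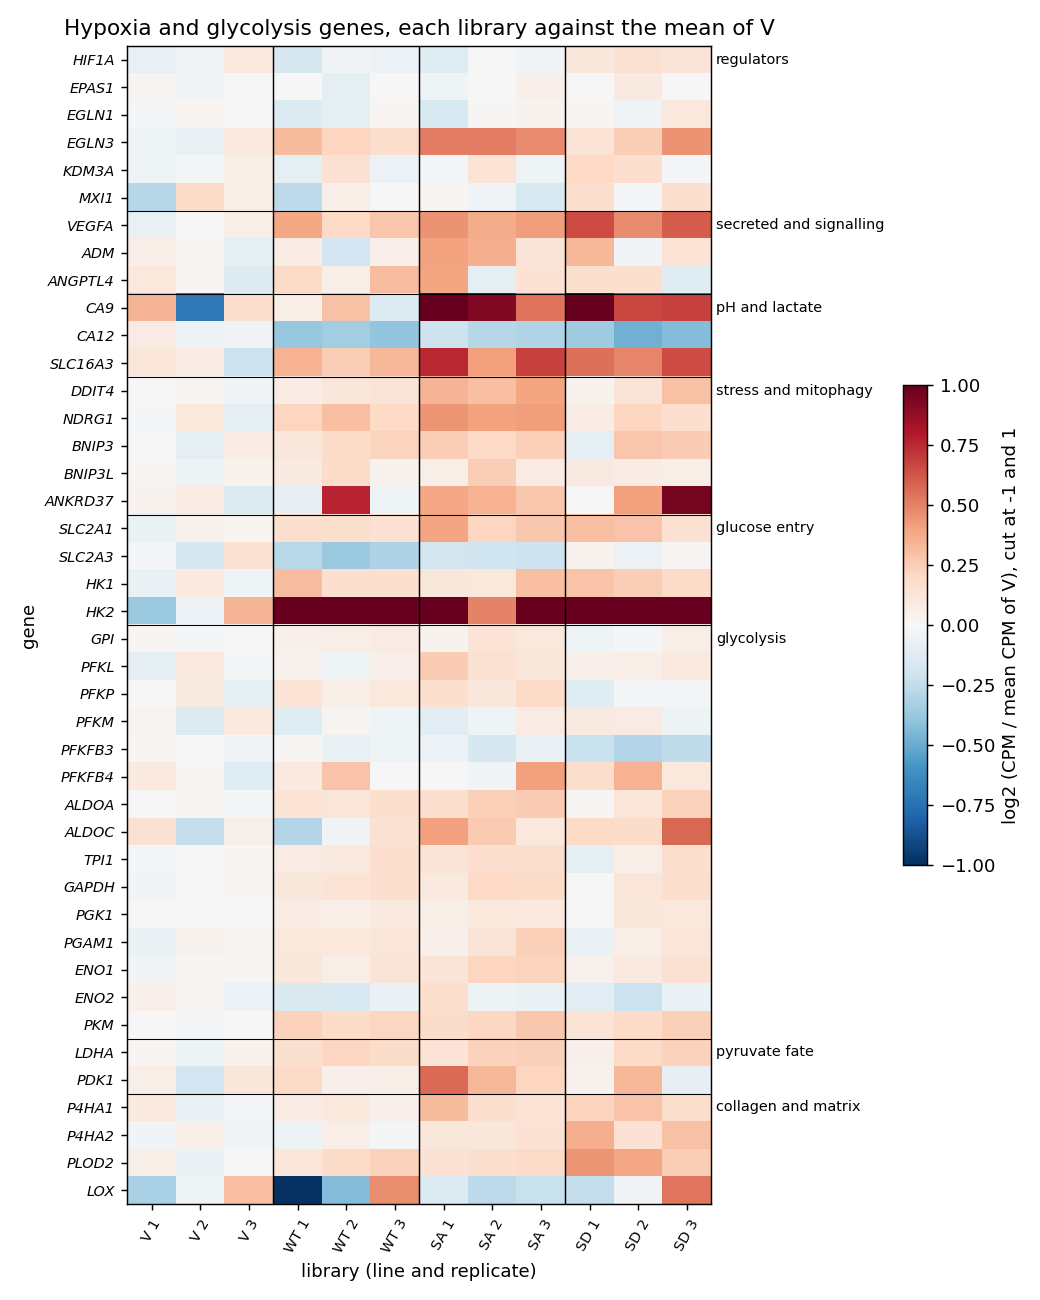
Each of the 42 genes (rows, grouped by role) in each of the 12 libraries (columns), as the log2 ratio of its CPM to the mean CPM of V, with the colour scale ended at -1 and 1. Most glycolysis rows are faintly red in the AHR lines, SLC16A3 and VEGFA are red in all 9 AHR libraries, CA12 is blue in all 9, and SD replicate 1 is paler than SD replicates 2 and 3 for ALDOA, TPI1, GAPDH, PGK1, PGAM1 and ENO1.

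VEGFA, SLC16A3, PLOD2, PKM and CA12 changed in all 3 lines, 4 genes changed in a pair of lines, 12 in a single line and 21 in none. The same tally was not made over all genes, and the shared V libraries tie the 3 comparisons together. Leaving out V replicate 1 lowered the number of changed genes to 5 in WT, 9 in SA and 5 in SD, from 9, 16 and 10. Without WT replicate 3 it was 5 in WT, and without SA replicate 2 it was 10 in SA. Over all genes, leaving out single libraries gave 434 to 720 changed in WT, 621 to 1195 in SA and 502 to 856 in SD, from 774, 1069 and 806. Without SD replicate 1, 12 genes changed in SD: GAPDH, LDHA, ALDOA, DDIT4 and BNIP3 were then higher than in V, with adjusted p-values of 0.0181, 0.00235, 0.0135, 0.0121 and 0.0222, and HK1, HK2 and P4HA2 no longer passed. Some epithelial markers moved with the same contrasts. KRT8, KRT18, CDH1 and ALDH1A1 were lower than in V in all 3 AHR lines, with log2 fold changes from -0.60 to -0.18. Their part in these results was not tested, and the other epithelial markers chosen (KRT7, EPCAM and AKR1B10) are not given for these contrasts.

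Among the regulators, HIF1A (ENSG00000100644, chr14:61695513-61748259) was the more abundant alpha subunit per kilobase. Its RNA was at 628, 650 and 706 CPM in V, 591, 644 and 634 in WT, 609, 664 and 650 in SA and 716, 736 and 725 in SD. The 3 SD libraries lay above all 9 others, but SD did not pass against V (log2 fold change 0.14 ± 0.05 SE, adjusted p = 0.158). EPAS1, the alpha subunit of HIF-2, was at 193, 185 and 190 CPM in V, 190, 177 and 190 in WT, 184, 189 and 196 in SA and 189, 201 and 189 in SD, and every pair of lines overlapped. Per kilobase of transcript, HIF1A made up between 81.4% ± 1.19 (WT) and 83.1% ± 0.345 (SD) of the level of both subunits (mean ± standard deviation, n = 3). EGLN1, the main HIF prolyl hydroxylase, was at 102, 105 and 103 CPM in V, 94.1, 97.1 and 105 in WT, 93, 104 and 106 in SA and 105, 101 and 111 in SD, and its lines overlapped too. EGLN3, a prolyl hydroxylase that HIF itself induces, was at 11.7, 11.5 and 12.9 CPM in V, 15, 14 and 13.6 in WT, 17.2, 17.2 and 16.7 in SA and 13.2, 14.3 and 16.4 in SD. All 9 AHR libraries were above the V libraries, and the difference passed in SA (0.50 ± 0.13, adjusted p = 0.0146). That call was lost without SA replicate 2, V replicate 1 or V replicate 2 (adjusted p = 0.0515, 0.0614 and 0.0516). Per kilobase, EGLN3 was 15.7% ± 0.92 of the level of EGLN1 and EGLN3 together in V and 21.4% ± 1.38 in SA. EGLN2, a gene of the wider list described below, is not in that share. Its line means were 35.2 to 38.9 CPM per kilobase, against 22.8 to 24.3 for EGLN1. The histone demethylase KDM3A (54.6 to 67.3 CPM) and the MYC antagonist MXI1 (9.46 to 13.1 CPM) passed in no comparison.

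The secreted factor VEGFA (ENSG00000112715, chr6:43770184-43786487), which drives blood vessel growth, was at 60.8, 64.5 and 67.2 CPM in V, 83.7, 73.5 and 77.7 in WT, 87.8, 82.8 and 85.5 in SA and 101, 89.1 and 97.4 in SD. All 9 AHR libraries exceeded all V libraries, and all SD libraries exceeded those of WT and SA. It rose by a log2 fold change of 0.28 ± 0.07 in WT (adjusted p = 0.0116), 0.41 ± 0.07 in SA (0.000132) and 0.58 ± 0.07 in SD (2.57e-06) by edgeR. The WT call was lost without WT replicate 1 or V replicate 1 (0.0813 and 0.105). ADM, the vasodilator peptide adrenomedullin, was at 29.4, 28.6 and 26.4 CPM in V, 29.6, 24.7 and 29.1 in WT, 37.2, 36.1 and 30.7 in SA and 35.4, 27.6 and 31 in SD. Only the SA libraries were all above V, and the rise there was at the threshold (0.30 ± 0.09, adjusted p = 0.0492). It was lost without SA replicate 1 or 2 or any of the 3 V replicates (0.0856 to 0.201) and with DESeq2 (0.127), the adjusted p over all alternatives running from 0.0231 to 0.201. ANGPTL4, an inhibitor of lipoprotein lipase, lay between 13.3 and 19.2 CPM and passed in no comparison.

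SLC16A3 encodes MCT4, a monocarboxylate transporter that carries lactate out of glycolytic cells. It was at 151, 146 and 120 CPM in V, 177, 165 and 175 in WT, 234, 185 and 223 in SA and 204, 195 and 219 in SD. No AHR library overlapped with V, and WT lay below both mutant lines. The rise was 0.31 ± 0.06 in WT (adjusted p = 0.00255), 0.62 ± 0.08 in SA (2.62e-06) and 0.57 ± 0.07 in SD (3.37e-06), and it passed under every alternative. CSNK1D on the opposite strand shares 5.22% of the exonic bases of SLC16A3, and its own log2 fold changes against V were -0.07 (WT), -0.05 (SA) and -0.09 (SD). CA12, which converts carbon dioxide and water to bicarbonate and protons at the cell surface, was at 819, 748 and 758 CPM in V, 596, 609 and 591 in WT, 672, 635 and 628 in SA and 605, 556 and 574 in SD. Every AHR library was below every V library. The log2 fold change was -0.37 ± 0.04 in WT (adjusted p = 3.88e-07), -0.27 ± 0.05 in SA (0.000496) and -0.42 ± 0.05 in SD (7.71e-06), and it too passed under every alternative. CA9, a related enzyme that is among the most hypoxia-responsive genes known, was close to the limit of detection. Its level was 1.54, 0.743 and 1.37 CPM in V, 1.27, 1.49 and 1.11 in WT, 2.81, 2.31 and 1.77 in SA and 2.6, 1.93 and 1.96 in SD. The SA and SD libraries lay above V and WT, but neither SA (0.90 ± 0.40, adjusted p = 0.195) nor SD (0.82 ± 0.40, 0.285) passed, and 1 library had only 7 expected counts. ARHGEF39 on the opposite strand shares 35.7% of the exonic bases of CA9 and was at 40.3 to 45.9 CPM in the means of the lines, so the source of the CA9 counts is uncertain.

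**Figure D2:**
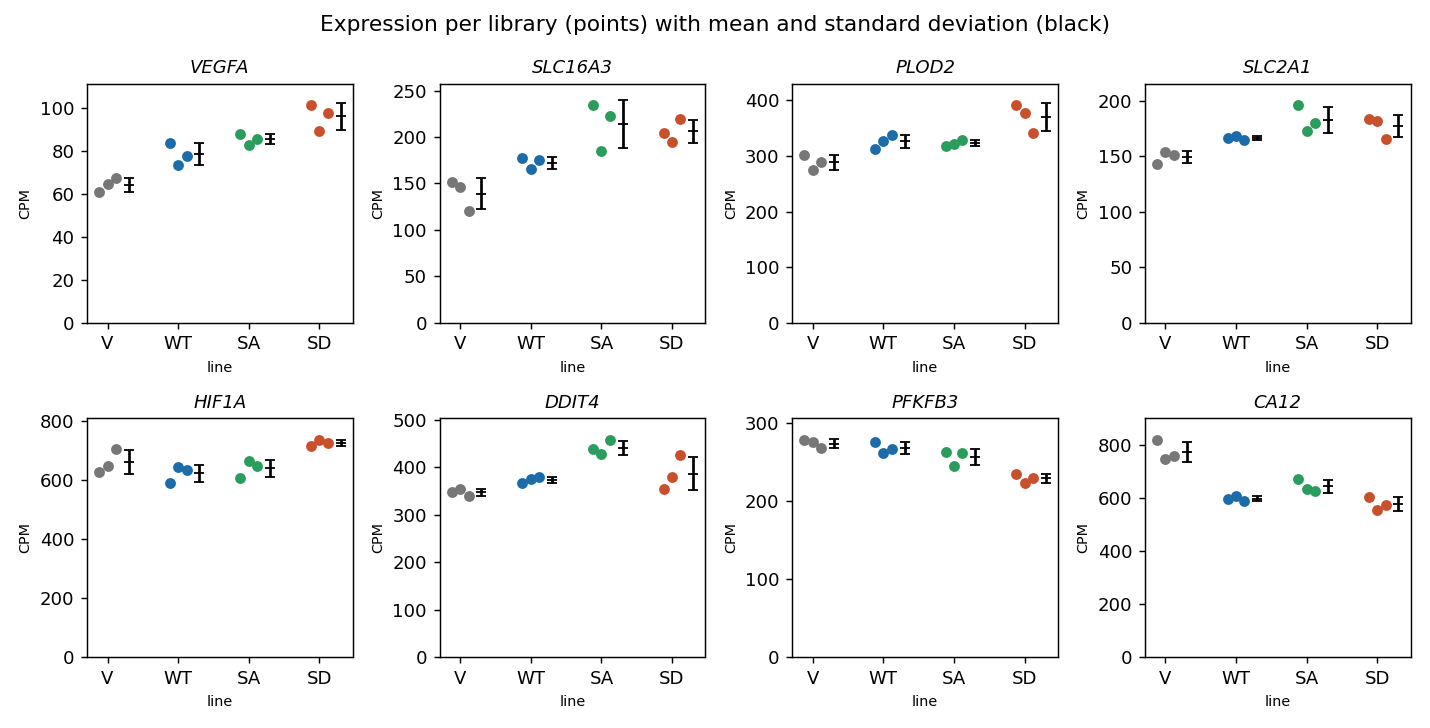
CPM of 8 genes in each library (points) of V, WT, SA and SD, with the mean and standard deviation of 3 libraries in black and each axis starting at 0. VEGFA, SLC16A3, PLOD2 and SLC2A1 are above V in all AHR libraries, CA12 is below V in all of them, HIF1A is highest and PFKFB3 lowest in SD, and DDIT4 is highest in SA.

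In the stress and mitophagy group, 3 of 5 genes rose in SA, where 3.88% of all genes did, and none passed in WT or SD with all libraries. Without SD replicate 1, DDIT4 and BNIP3 passed in SD (0.0121 and 0.0222). DDIT4 (REDD1), which restrains mTORC1 under stress, was at 347, 354 and 340 CPM in V, 366, 375 and 379 in WT, 438, 427 and 457 in SA and 355, 380 and 425 in SD. SA was above all other libraries, with a rise over V of 0.34 ± 0.05 (adjusted p = 1.4e-05) that passed under every alternative. NDRG1, a hypoxia-induced gene whose loss causes a hereditary neuropathy, was at 50.7, 55.5 and 48.2 CPM in V, 59.6, 63.4 and 59.1 in WT, 70, 68.1 and 68.6 in SA and 54.2, 59.8 and 57.7 in SD. SA again stood above the other lines, and the rise over V was 0.42 ± 0.07 (adjusted p = 0.000272), against 0.24 ± 0.07 in WT (0.0585) and 0.16 ± 0.08 in SD (0.303). BNIP3, a mitochondrial receptor for mitophagy, was at 74.6, 69.9 and 78.1 CPM in V, 80.3, 84.2 and 86.5 in WT, 87.9, 85 and 87.6 in SA and 69.8, 90 and 88.3 in SD. SD replicate 1 was the lowest library of all. The rise in SA (0.23 ± 0.06, adjusted p = 0.0302) was lost without SA replicate 2 or 3 or V replicate 1 or 2 (0.0606 to 0.13). The related receptor BNIP3L (86.7 to 106 CPM) and the HIF target ANKRD37 (1.47 to 3.12 CPM) passed in no comparison, and UFSP2 on the opposite strand shares 40.3% of the exonic bases of ANKRD37.

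Glucose entry is served by the transporters SLC2A1 (GLUT1) and SLC2A3 (GLUT3) and by hexokinases, which trap glucose as its phosphate. SLC2A1 was at 143, 154 and 151 CPM in V, 167, 168 and 165 in WT, 196, 173 and 180 in SA and 184, 182 and 166 in SD. All 9 AHR libraries exceeded V. The rise was 0.16 ± 0.05 in WT (adjusted p = 0.0597, not passing), 0.29 ± 0.06 in SA (0.00121) and 0.25 ± 0.06 in SD (0.00934), the last lost without SD replicate 2 or V replicate 1 (0.0695 and 0.0946). SLC2A3 went the other way in WT, with 52.3, 47.4 and 58.9 CPM in V, 43.6, 40.9 and 42.8 in WT, 46.5, 46.1 and 45.8 in SA and 54.2, 50.9 and 53.2 in SD. WT and SA lay below V and SD overlapped with it. The fall in WT (-0.32 ± 0.08, adjusted p = 0.017) was lost without WT replicate 2 or 3 or V replicate 1 or 3 (0.0606 to 0.15). Per kilobase, SLC2A1 was 76.2% ± 2.18 of the level of both transporters for V, 81.6% ± 0.566 for WT, 81.7% ± 0.887 for SA and 79.2% ± 1.11 for SD.

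Of HK1 and HK2 together, HK1 made up 98.4% to 99.4% per kilobase in the means of the lines. HKDC1, a hexokinase family member in the wider list described below, is not in that share. Its line means were 24.3 to 30.1 CPM per kilobase, against 21.2 to 25.1 for HK1. HK1 was at 73.1, 82 and 74.3 CPM in V, 94.7, 85.3 and 85.7 in WT, 82.9, 82.3 and 94.3 in SA and 93.1, 90.6 and 87.5 in SD. All 9 AHR libraries were above V, and SD alone passed (0.24 ± 0.07, adjusted p = 0.0299). It failed without SD replicate 1 or 2 or V replicate 1 or 3 (0.0698 to 0.176) and with DESeq2 (0.0542), the range over all alternatives being 0.0204 to 0.176. HK2, the hexokinase that HIF induces in many tumours, was at 0.514, 0.637 and 0.842 CPM in V, 1.65, 1.4 and 1.34 in WT, 1.6, 0.939 and 1.59 in SA and 3.5, 2.04 and 1.51 in SD. Every AHR library was above every V library, at a depth of as few as 5 expected counts. The SD rise of 1.80 ± 0.46 (adjusted p = 0.0174) was lost without SD replicate 1, V replicate 1 or V replicate 2 (0.142, 0.102 and 0.0769), and WT did not pass (1.12 ± 0.48, 0.208).

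The 15 genes of the glycolysis group, from the isomerase GPI to pyruvate kinase and including both PFKFB regulators, held 1.43%, 1.47% and 1.46% of all expected counts in V. Their share was 1.59%, 1.58% and 1.62% in WT, 1.58%, 1.64% and 1.67% in SA and 1.46%, 1.56% and 1.63% in SD. WT and SA lay above V throughout, whereas SD replicate 1 was within the range of V. In WT 3 of the 15 rose, in SA 5 rose, and in SD 1 rose and 1 fell, against 2.31%, 3.88% and 2.92% of all genes rising and 2.49% falling in SD. Without SD replicate 1, 3 rose in SD (PKM, GAPDH and ALDOA) and PFKFB3 fell. The share of all genes changed in that fit is not given separately. Over fits with a single library left out, 502 to 856 of all genes changed in SD, from 806.

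**Figure D3:**
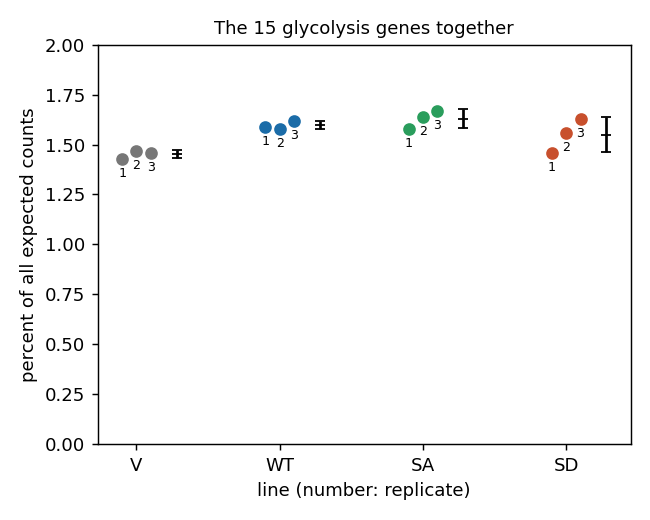
Share of all expected counts taken by the 15 glycolysis genes in each library (points, numbered by replicate) of the 4 lines, with the mean and standard deviation of 3 libraries in black. The share was 1.45% ± 0.0208 for V, 1.6% ± 0.0208 for WT, 1.63% ± 0.0458 for SA and 1.55% ± 0.0854 for SD, where replicate 1 is level with V.

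PKM, pyruvate kinase, was at 3286, 3254 and 3283 CPM in V, 3845, 3728 and 3799 in WT, 3728, 3787 and 3946 in SA and 3603, 3735 and 3866 in SD. It was above V in all 9 AHR libraries and rose by 0.21 ± 0.03 in WT (adjusted p = 0.000123), 0.22 ± 0.04 in SA (0.000895) and 0.19 ± 0.05 in SD (0.0226). The SD call was lost without SD replicate 2 or 3 or any V replicate (0.0551 to 0.132). GAPDH, the dehydrogenase of the pathway and the gene with the highest level per kilobase of the 42, was at 4098, 4176 and 4228 CPM in V, 4508, 4586 and 4681 in WT, 4457, 4781 and 4730 in SA and 4147, 4528 and 4698 in SD. Only SD replicate 1 fell among the V libraries. It rose in WT (0.14 ± 0.03, adjusted p = 0.0111) and SA (0.16 ± 0.04, 0.0198). The first call was lost without WT replicate 3 or V replicate 1 (0.0619 and 0.0729) and the second without SA replicate 2 or 3 or any V replicate (0.0569 to 0.134).

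Aldolase A, ALDOA, was at 1107, 1112 and 1093 CPM in V, 1215, 1199 and 1245 in WT, 1239, 1305 and 1313 in SA and 1110, 1202 and 1292 in SD. SD replicate 1 was again level with V. The rise was 0.14 ± 0.04 in WT (adjusted p = 0.019), which was lost without WT replicate 3, V replicate 1 or V replicate 3 (0.099, 0.0728 and 0.0831), and 0.22 ± 0.04 in SA (0.0016). A second record, ENSG00000285043, shares 42.8% of the exonic bases of ALDOA on the same strand, and counts of ALDOA were split fractions in all 12 libraries. ENO1, enolase, was at 2181, 2255 and 2237 CPM in V, 2403, 2335 and 2434 in WT, 2431, 2581 and 2591 in SA and 2290, 2375 and 2468 in SD. All AHR libraries were above V, and SA passed (0.19 ± 0.04, adjusted p = 0.00629; 0.0683 without V replicate 1). TPI1, triosephosphate isomerase, was at 679, 688 and 696 CPM in V, 728, 735 and 772 in WT, 751, 771 and 775 in SA and 647, 720 and 774 in SD. SD spanned a wider range than the other lines. Its rise in SA (0.15 ± 0.04, adjusted p = 0.0282) was lost without SA replicate 2 or 3 or any V replicate (0.0675 to 0.15).

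PFKFB3 (ENSG00000170525, chr10:6144934-6254644), which makes the allosteric activator of phosphofructokinase, was the member of this group that fell. Its level was 278, 275 and 268 CPM in V, 276, 262 and 266 in WT, 263, 245 and 261 in SA and 235, 223 and 229 in SD. The SD libraries were below all 9 others, and the fall from V (-0.26 ± 0.05, adjusted p = 0.00306) passed under every alternative. The other 9 genes of the group passed in no comparison in the test used throughout. In SA against V, PFKP (0.0578) passed under 6 of 12 alternatives, DESeq2 (0.0441) among them, with a range of 0.0199 to 0.321, and PGAM1 (0.0933) under 3 of 12, from 0.00944 to 0.433. GPI passed there without SA replicate 1 (0.0498) and PFKL without V replicate 2 (0.0394). Of these, GPI, PGK1 and PGAM1 had log2 fold changes of 0.01 to 0.14 against V in all 3 lines, and the phosphofructokinase subunit PFKP had 0.10 (WT), 0.15 (SA) and -0.05 (SD). PFKL, PFKM, PFKFB4, ALDOC and ENO2 ranged from -0.13 to 0.33. PFKP was the main phosphofructokinase subunit, at 75.7% to 78.4% of the level of the 3 subunits per kilobase in the means of the lines. On the same scale ALDOA held at least 98.8% of the level of ALDOA and ALDOC, and ENO1 at least 97.2% of that of ENO1 and ENO2.

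LDHA, the lactate dehydrogenase subunit that turns pyruvate into lactate, was at 1214, 1157 and 1231 CPM in V, 1339, 1390 and 1362 in WT, 1317, 1412 and 1413 in SA and 1242, 1373 and 1409 in SD. No AHR library overlapped with V. It rose by 0.18 ± 0.04 in WT (adjusted p = 0.00263) and 0.20 ± 0.05 in SA (0.005) under every alternative, and was 0.16 ± 0.05 in SD (0.0875). Its expected counts were not whole in 7 libraries. PDK1, the kinase that switches off pyruvate dehydrogenase, was at 11.6, 9.76 and 12 CPM in V, 12.7, 11.5 and 11.6 in WT, 16.5, 14 and 12.9 in SA and 11.4, 14 and 10.5 in SD. SA lay above V without passing (0.38 ± 0.15, adjusted p = 0.133).

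Among the collagen-modifying genes, PLOD2, which hydroxylates collagen lysines, was at 301, 275 and 289 CPM in V, 313, 327 and 338 in WT, 318, 322 and 329 in SA and 391, 377 and 342 in SD. All AHR libraries were above V and all SD libraries above WT and SA. The rise was 0.18 ± 0.05 in WT (adjusted p = 0.0209), 0.16 ± 0.05 in SA (0.0379) and 0.36 ± 0.06 in SD (0.000192). The WT call was lost without WT replicate 2 or 3 or V replicate 2 or 3 (0.0543 to 0.142), the SA call without SA replicate 2 or 3 or any V replicate (0.0556 to 0.165), and the SD call under no alternative. P4HA2, a collagen prolyl hydroxylase, was at 64.7, 69 and 64 CPM in V, 63.5, 68.9 and 65.2 in WT, 71.4, 71.2 and 73 in SA and 84.7, 72.7 and 80.9 in SD. WT matched V, and SD rose (0.27 ± 0.07, adjusted p = 0.0212), which was lost without SD replicate 1 or 3 or V replicate 1 or 3 (0.0612 to 0.107). Its relative P4HA1 was between 48.2 and 63.2 CPM and LOX, which crosslinks collagen, between 0.635 and 2.23 CPM, and neither passed in any comparison.

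**Figure D4:**
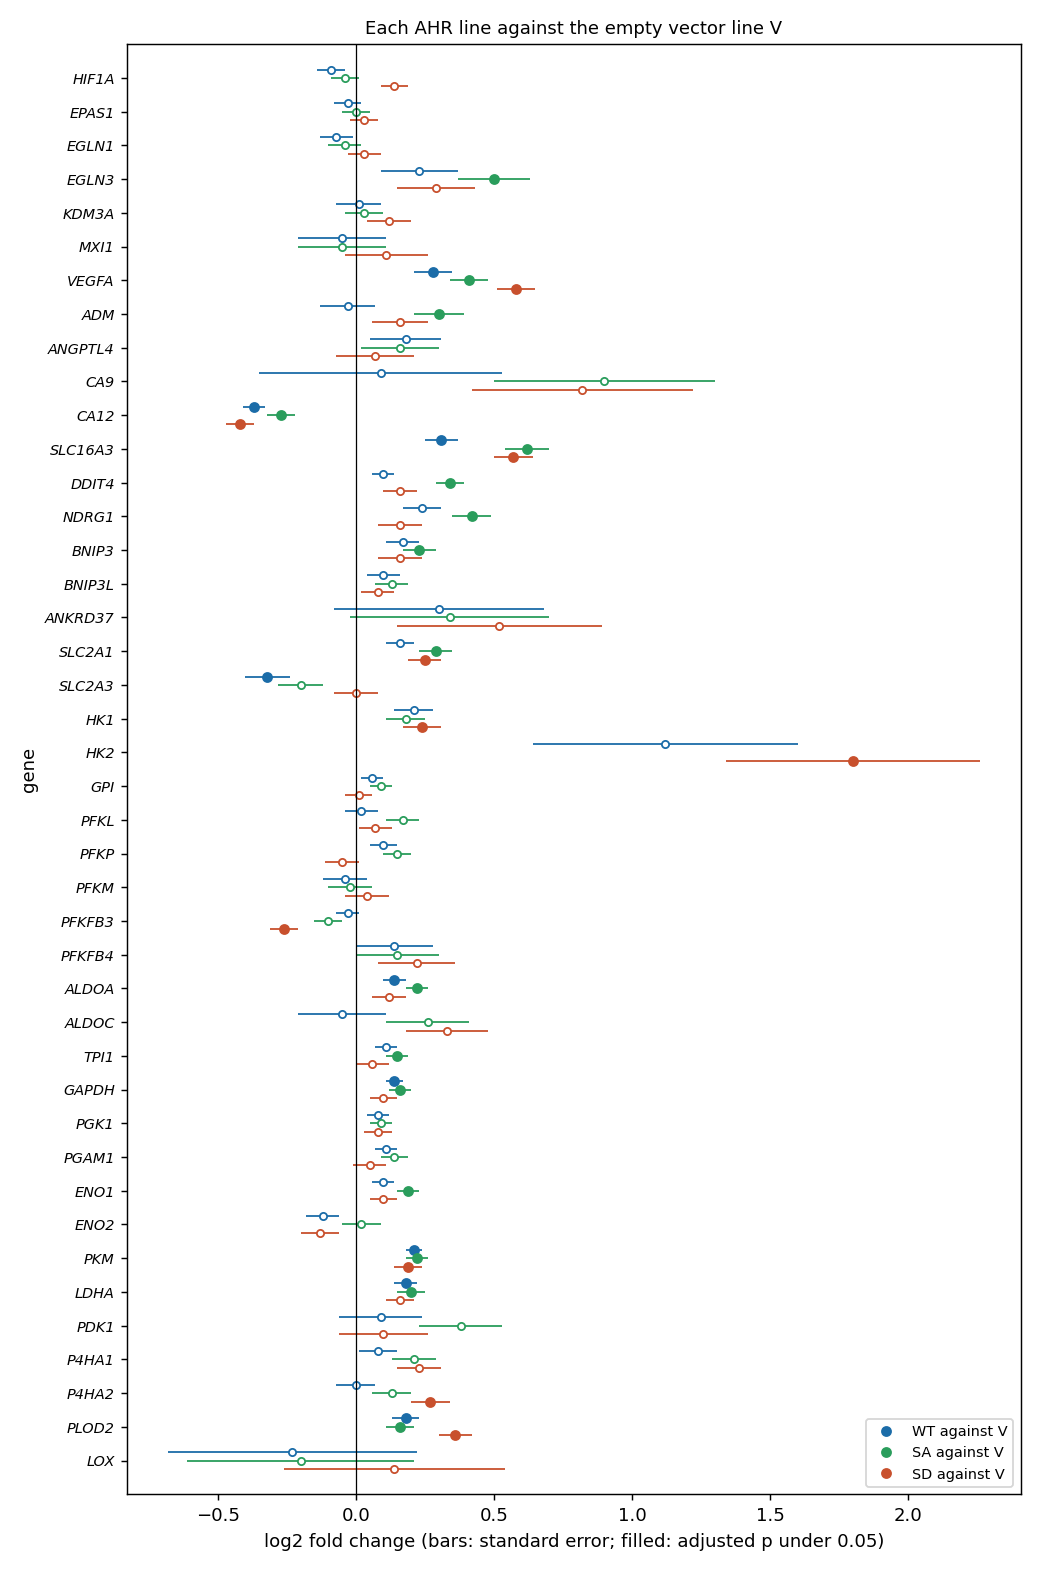
Log2 fold change of each of the 42 genes in WT, SA and SD against V, with standard errors as bars and filled points for an adjusted p under 0.05. CA12 is left of 0 and SLC16A3, VEGFA and PLOD2 are right of 0 with filled points in all 3 lines, HIF1A and PFKFB3 separate SD from WT and SA, and HK2 has no SA point because it was not tested there.

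Whether the S489 variants differed from each other was asked in the 3 comparisons among the AHR lines. In SD against WT, 3 of the 42 genes rose (HIF1A, VEGFA and SLC16A3) and 1 fell (PFKFB3). Of all 14828 genes tested, 0.513% rose and 0.196% fell, and of those at 50 CPM or more 1.11% rose and 0.333% fell. The 42 values had a median of 0.05, against -0.00 over the whole table. HIF1A was higher by 0.22 ± 0.05 (16.4%, adjusted p = 0.0477), VEGFA by 0.29 ± 0.07 (0.0452) and SLC16A3 by 0.26 ± 0.06 (0.0298), and PFKFB3 changed by -0.23 ± 0.05 (0.0435). The 3 libraries of SD lay outside the range of WT for each of these 4 genes. They were picked by this same comparison, so the separation is no added evidence, and the share of all genes that separate was not counted. The adjusted p-values were near the threshold. HIF1A was lost without SD replicate 2 or 3 or any WT replicate (0.0534 to 0.283), VEGFA without any single one of the 6 libraries (0.0559 to 0.21), SLC16A3 without SD replicate 2 or 3 or any WT replicate (0.0547 to 0.167) and PFKFB3 without those same libraries (0.0594 to 0.237). With all 12 libraries in 1 fit SLC16A3 was at 0.122 (0.00388 to 0.167 over all its alternatives), and with DESeq2's size factors HIF1A was at 0.0519 (0.00113 to 0.283). Without SD replicate 1, 3 of the 4 passed (HIF1A, SLC16A3 and PFKFB3). SLC2A3 was 0.32 ± 0.08 (adjusted p = 0.0531) and passed under 5 of 12 alternatives, DESeq2 (0.0469) and both other count filters among them, with a range of 0.0288 to 0.19. In the same comparison P4HA2 was 0.27 ± 0.07 (0.0901) and PLOD2 was 0.18 ± 0.06 (0.18). The keratin KRT7, an epithelial marker, was lower in SD than in WT in the same fit (-0.23 ± 0.05, adjusted p = 0.0309), and its part in these differences was not tested. The other epithelial markers chosen (KRT8, KRT18, CDH1, ALDH1A1, EPCAM and AKR1B10) are not given for this comparison.

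In SD against SA none of the 42 genes passed with edgeR, and DESeq2 called 1, PFKP (-0.21, adjusted p = 0.0293). With a block for the replicate number in the edgeR fit, 5 of the 42 and 165 of all genes passed, HIF1A, PLOD2 and DDIT4 among them. Without the block, 9 of the 42 had an unadjusted p under 0.05, as did 1281 of all genes tested. Among all 15030 genes tested, 0.16% rose and 0.0599% fell. The log2 fold changes in this comparison were 0.18 ± 0.05 for HIF1A, 0.17 ± 0.07 for VEGFA, 0.20 ± 0.06 for PLOD2, -0.27 ± 0.07 for NDRG1, -0.19 ± 0.06 for DDIT4 and -0.05 ± 0.07 for SLC16A3. For the first 5 of these genes the libraries of SD and SA did not overlap, but none passed without the block (adjusted p from 0.156 to 0.478). The share of all genes that separate in this way was not counted. None of the 42 passed when SD replicate 1, or any other single library, was left out.

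In WT against SA, 37 of the 42 log2 fold changes were negative, with a median of -0.04, and DDIT4 alone passed (-0.24 ± 0.05, adjusted p = 0.038). Over all genes tested 7536 of 14942 were negative, with a median of -0.00. In the wider list of pathway genes described below 29 of 49 were negative, with a median of -0.02. None of the 42 rose, and 0.0201% of all 14942 genes rose and 0.0602% fell. Of all genes at 50 CPM or more, 0% rose and 0.0884% fell. The DDIT4 call was lost without any WT replicate or SA replicate 2 or 3 (0.0717 to 0.268) and with all 12 libraries in 1 fit (0.143), the range over all alternatives being 0.000186 to 0.268. SLC16A3 was -0.31 ± 0.07 (adjusted p = 0.0691, passing under 5 of 12 alternatives, with a range of 1.45e-05 to 0.449) and ADM -0.33 ± 0.10 (0.419), with all WT libraries below all SA libraries for both. The number of positive values was 10 without WT replicate 1, 8 without WT replicate 2 and 11 without SA replicate 3, against 5 with all libraries.

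**Figure D5:**
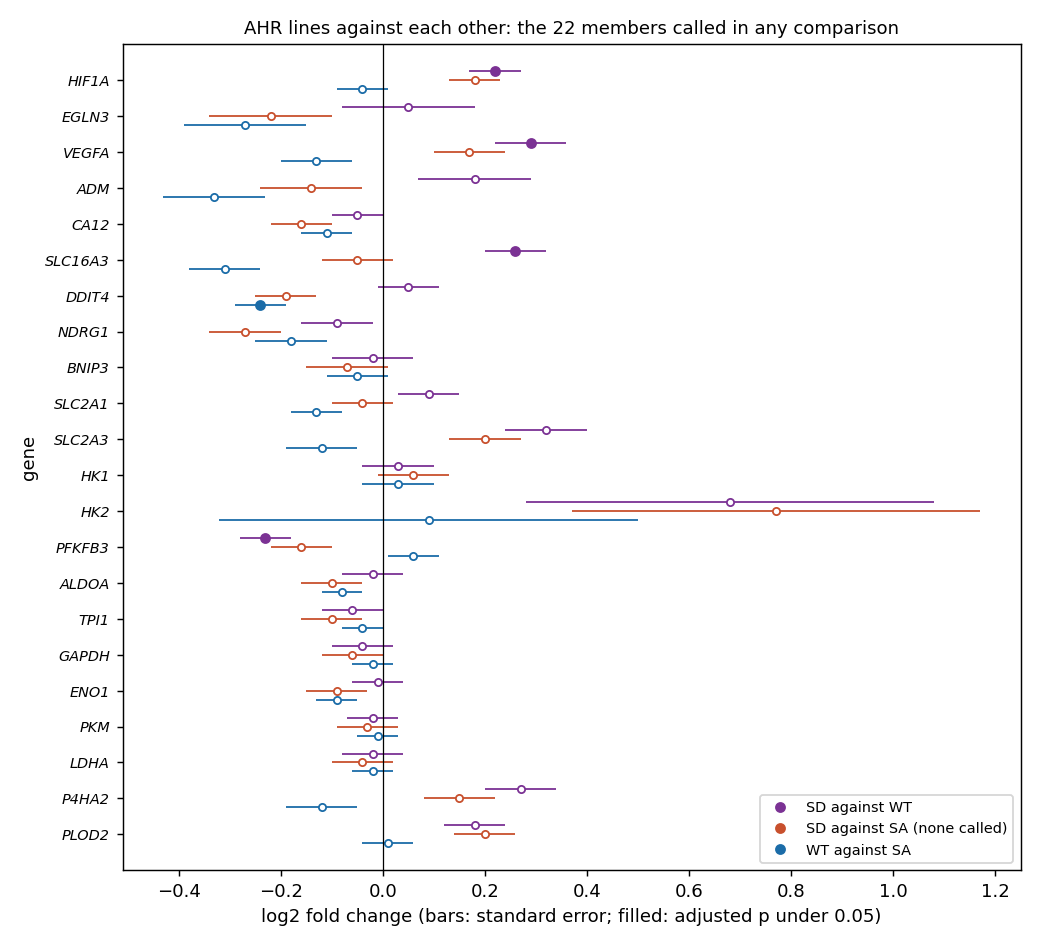
Log2 fold changes among the AHR lines for the 22 genes that passed in any comparison, with standard errors as bars and filled points for an adjusted p under 0.05. Filled points are HIF1A, VEGFA, SLC16A3 and PFKFB3 in SD against WT and DDIT4 in WT against SA, and ALDOA, TPI1, GAPDH, ENO1 and PKM lie between -0.10 and -0.01.

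A wider list of 65 other genes of the hypoxia and glucose pathways was read beside the 42, of which 49 were tested in each comparison. It gave 2 rises and 3 falls in WT, 4 and 4 in SA and 3 and 4 in SD, which is 10.2%, 16.3% and 14.3% of the 49, against 5.24%, 7.17% and 5.41% of all genes tested and 9.47%, 13.1% and 8.39% of those at 50 CPM or more. Its median log2 fold changes were -0.00, -0.01 and 0.01. Among the AHR lines edgeR called none of them, and DESeq2 called at most 1 in any of the 3. An unadjusted p under 0.05 was reached by 4 (SD against WT), 6 (SD against SA) and 5 (WT against SA) of the 49. Over all genes tested it was reached by 1579 of 14828, 1281 of 15030 and 1093 of 14942 in the same order. ARNT, the shared partner of HIF and AHR, was at 40.9, 41.6 and 36.3 CPM in V, 41.8, 41.4 and 37.9 in WT, 36.5, 37.1 and 37.6 in SA and 41.9, 44.3 and 42.4 in SD, and it passed in no comparison. LOXL2, a lysyl oxidase, rose in all 3 lines from 283, 283 and 278 CPM in V to 397, 379 and 371 in WT, 433, 366 and 381 in SA and 421, 366 and 377 in SD, with log2 fold changes of 0.44 ± 0.04, 0.48 ± 0.05 and 0.47 ± 0.06. STC2, a secreted glycoprotein, rose from 55.6, 52.3 and 54.6 CPM to 75.1, 76.8 and 68.6 in WT, 74.9, 67.8 and 77.8 in SA and 64.7, 70.6 and 63.7 in SD. Its SD call (0.29 ± 0.07, adjusted p = 0.0148) was lost without SD replicate 2, V replicate 2 or V replicate 3 (0.11, 0.0794 and 0.0519).

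Falls in this wider list included genes that hypoxia is known to induce. HILPDA, a lipid droplet protein, was at 35.8, 32.5 and 38 CPM in V, 25.9, 23.2 and 25.1 in WT, 27.7, 23 and 27.3 in SA and 25.9, 21.6 and 20 in SD, a change of -0.53 ± 0.09, -0.45 ± 0.10 and -0.65 ± 0.10. The lipoprotein receptor VLDLR was at 47.9, 48.5 and 50.2 CPM in V, 33.5, 39.3 and 35.7 in WT, 35.8, 30 and 34.6 in SA and 37.5, 36.1 and 39.7 in SD. All AHR libraries lay below V for both genes, and the calls passed under every alternative. HKDC1, a hexokinase family member, was at 111, 112 and 108 CPM in V, 94.8, 86.4 and 88.2 in WT, 100, 94.4 and 90.6 in SA and 89.3, 92.3 and 84.5 in SD. It fell by 0.30 ± 0.06 on the log2 scale in WT and 0.31 ± 0.06 in SD, and its SA call (-0.21 ± 0.06, adjusted p = 0.0279) was lost without SA replicate 2 or 3 or any V replicate (0.0546 to 0.157). PGM1, which feeds glucose units from glycogen into glycolysis, was at 72.3, 70.7 and 70.7 CPM in V, 80.3, 76.8 and 80.6 in WT, 88, 87.1 and 89.8 in SA and 84.1, 89.6 and 87.6 in SD. All 9 AHR libraries were above V, and it rose by 0.31 ± 0.06 in SA and 0.29 ± 0.06 in SD. The HIF-induced repressor BHLHE40 was at 143, 144 and 146 CPM in V, 159, 146 and 153 in WT, 176, 160 and 166 in SA and 154, 168 and 154 in SD. WT overlapped with V, and the gene rose in SA (0.21 ± 0.05, adjusted p = 0.0143; 0.0828 without V replicate 1). The transferrin receptor TFRC was at 333, 305 and 314 CPM in V, 312, 294 and 288 in WT, 284, 277 and 271 in SA and 330, 314 and 288 in SD. The SA libraries were below all others, and the gene fell in SA (-0.20 ± 0.05, adjusted p = 0.0119), which was lost without SA replicate 2 or 3 or V replicate 1 (0.0591, 0.0795 and 0.14).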

How the data were processed

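RNA-seq of the V, WT, SA and SD lines gave 3 libraries per line. Per the labels and the study's methods, the authors trimmed reads with Trimmomatic 0.39 and mapped them to GRCh38 transcripts with RSEM, and they deposited the expected count of each gene without normalization. Fractional values made up 3.24% to 3.61% of a library, since RSEM divides reads among similar genes (ALDOA and PGAM1 in all 12 libraries). The deposited table of the authors' own comparisons (fold changes and p-values) was not used. Columns were matched to libraries by line and replicate in the sample titles, the letters A and D being read as SA and SD.

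Expected counts were rounded, and the 6 libraries of a comparison were fitted together in R 4.3.3 with edgeR 4.0.16 (filterByExpr with minimum count 10 and minimum total count 15, TMM, two-sided quasi-likelihood test, Benjamini-Hochberg adjustment). A gene with an adjusted p under 0.05 was called changed. Standard errors were derived from the F statistics. CPM used TMM sizes over 12 libraries, and levels per kilobase used the canonical transcript length of GENCODE release 44. No library was a copy of another, and the procedure was tested on simulated data. Totals of 7844045 to 11765576 limit the precision of genes near 1 CPM, and counting limits cover counting error only. The alternatives were DESeq2 1.42.0 and its size factors, looser and stricter count filters, a single fit of all 12 libraries, a block for the replicate number, and each library left out in turn.

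The 42 genes, the wider list and the markers were chosen with earlier results of these data known. Values per library are given for genes changed in any comparison, for HIF1A, EPAS1, EGLN1, EGLN3, VEGFA, CA9, ADM, SLC2A1, HK2, PDK1 and LDHA whatever their values, for ARNT, and for changed genes of the wider list, except 1 that is not reported here.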

Additional observations from a re-analysis of the deposited data

Results flagged for a closer look

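For 5 genes the change against V differed between AHR lines by a direct edgeR test of one line against the other. HIF1A (log2 fold change 0.22), VEGFA (0.29) and SLC16A3 (0.26) exceeded WT in SD, where PFKFB3 was lower (-0.23). DDIT4 was lower in WT than in SA (-0.24). All 5 adjusted p-values lay between 0.0298 and 0.0477, and each call was lost when single libraries were left out. Groups of 3 libraries were not tested for single outlying libraries.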

How the results depend on the processing

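Of 60 calls of single genes, 34 passed under every alternative, and of 719 alternative values 606 stayed on the same side of the threshold, 113 no longer passed and 0 changed direction. For all genes, the number changed in SD against WT (105) was 252 when every gene with at least 1 count was tested, that in SD against SA (33) was 153 and that in WT against SA (12) was 103. The last was 5 with all 12 libraries in a joint fit, in which the calls of GAPDH, ALDOA and PLOD2 in WT and of TPI1, ADM, PLOD2 and BNIP3 in SA against V were also lost. Among the 42 genes, WT against SA gave 2 calls with either other count filter or with DESeq2 and 0 in the joint fit of 12 libraries, and SD against SA gave 1 with DESeq2. With single libraries left out, all genes changed ranged from 45 to 145 (SD against WT), 11 to 56 (SD against SA), 2 to 25 (WT against SA), 434 to 720 (WT against V), 621 to 1195 (SA against V) and 502 to 856 (SD against V). The corresponding ranges of the 42 were 0 to 3, 0 to 0, 0 to 1, 5 to 10, 9 to 18 and 5 to 12, and the number with positive values in WT against SA was 5 to 11. Deviations of libraries with the same replicate number correlated weakly, between -0.0375 and 0.106, and those with different numbers between -0.0991 and 0.0653. Among the 3 AHR lines, same-number pairs ran from 0.0171 to 0.0549 and different-number pairs from -0.0458 to 0.0119. Whether the numbers pair the samples was not tested. With the replicate block, all genes changed were 245 (SD against WT), 165 (SD against SA), 25 (WT against SA) and 507 (WT against V), and the 42 gave 5, 5, 2 and 7 calls in the same order, those in SD against SA being PFKP (0.00653), HIF1A (0.0093), CA12 (0.0242), DDIT4 (0.0259) and PLOD2 (0.041). ALDOA and PLOD2 in WT against V no longer passed with it. The cause of these shifts was not tested. Depth limits HK2, LOX, CA9 and ANKRD37, each under 5 CPM.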
